A study of Mus musculus with 171 samples.

Results

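The genes examined here encode enzymes that make, use or interconvert α-ketoglutarate: Idh1, Idh2, Idh3a, Idh3b, Idh3g, Ogdh, Got1, Got2 and Glud1. They were picked by symbol, as the rows of the deposited count table whose Ensembl identifier carries that name, and all 9 were found among 49671 gene rows. The table holds single-cell RNA sequencing counts of 171 cells from mouse embryos that lack Stat3 (MUT, genotype Stat3 -/-) or are wild type (WT, genotype Stat3 +/+). The ICM, or inner cell mass, was sampled at E3.5 (embryonic day), with 55 cells of 5 MUT embryos and 64 cells of 5 WT embryos. At E3.75, 9 epiblast (EPI) cells came from 4 MUT embryos and 19 from 3 WT embryos, and 14 primitive endoderm (PrE) cells came from the same 4 MUT embryos and 10 from the same 3 WT embryos. Neither strain, nor the design of the null allele, nor the cell isolation is described in the labels. The embryo was taken as the replicate, and levels were compared as counts summed over the cells of an embryo and lineage (24 sums of 17 embryos). The number in a sample title was read as the embryo, a reading that the labels do not spell out.

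α-Ketoglutarate is an intermediate of the tricarboxylic acid (TCA) cycle and a substrate of the TET enzymes and many histone demethylases, which oxidise methyl groups on DNA and histones. In cultured naive pluripotent cells it is known to favour self-renewal, and STAT3, the transcription factor downstream of the cytokine LIF, is known to sustain naive pluripotency. The enzymes differ in what they do to it. Idh1 (cytosol) and Idh2 (mitochondria) encode the NADP-dependent isocitrate dehydrogenases, and Idh3a, Idh3b and Idh3g encode the subunits of the NAD-dependent mitochondrial enzyme, all of which form α-ketoglutarate from isocitrate. Glud1 encodes glutamate dehydrogenase, which forms it from glutamate, and Got1 (cytosol) and Got2 (mitochondria) encode the aspartate transaminases, which work in both directions. Ogdh encodes a subunit of the α-ketoglutarate dehydrogenase complex, which consumes it, so a common name as producers does not cover this gene.

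In the mm10 build with the GENCODE vM21 annotation all 9 are protein-coding, and each count is over the whole gene. Idh1 lies on chromosome 1 (65158616 to 65186500, minus strand), Idh2 on chromosome 7 (80094846 to 80115392, minus strand) and Idh3a on chromosome 9 (54586334 to 54604661, plus strand). Idh3b lies on chromosome 2 (130279309 to 130284547, minus strand) and overlaps Nop56 on the other strand by 5 bases. Idh3g is the X-linked member (73778963 to 73786897, minus strand), and Ogdh is on chromosome 11 (6291633 to 6356642, plus strand). Got1 is on chromosome 19 (43499752 to 43524605, minus strand), Got2 on chromosome 8 (95864134 to 95888547, minus strand) and Glud1 on chromosome 14 (34310727 to 34345265, plus strand). Got2 and Glud1 have annotated pseudogenes, Got2-ps1 and Glud-ps, whose highest levels in any sum were 1.19 and 14.5 CPM (counts scaled to a total of 1000000).

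Got1 and Idh3g were the members whose MUT and WT sums did not overlap in a lineage, and for that reason the 250 bases before their annotated starts are shown (RefSeq, GRCm38.p6, minus strand, 5′ to 3′). Capitals mark CCAAT (Got1) or CCGGAA (Idh3g, the core bound by ETS factors), on either strand.
Got1, chr19:43524606-43524855: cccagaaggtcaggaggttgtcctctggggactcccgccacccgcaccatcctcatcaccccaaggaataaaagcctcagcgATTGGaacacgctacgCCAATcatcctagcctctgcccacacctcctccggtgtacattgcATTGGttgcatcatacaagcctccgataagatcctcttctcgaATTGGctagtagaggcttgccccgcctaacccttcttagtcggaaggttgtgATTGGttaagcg
Idh3g, chrX:73786898-73787147: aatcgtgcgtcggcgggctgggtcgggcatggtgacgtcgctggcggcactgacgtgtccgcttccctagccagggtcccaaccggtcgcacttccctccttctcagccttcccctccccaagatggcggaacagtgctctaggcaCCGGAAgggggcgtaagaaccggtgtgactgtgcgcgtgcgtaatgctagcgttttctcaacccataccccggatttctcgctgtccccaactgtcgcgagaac
The Got1 window held 5 CCAAT boxes. Of 32851 mouse promoter windows of this length, 33.8% held at least 1 and 0.840% held 4 or more. The Idh3g window held 1 CCGGAA, which 12% of windows held. TTCNNNGAA, the spaced pair of half-sites that STAT dimers can bind, was in no window of the 8 members with an entry, against 7.02% of all windows, both strands searched. The NRF1 motif was likewise in none, against 0.782% of all windows. At such low shares, absence from 14 windows does not set these members apart. These are matches of letters, and factor binding was not measured.

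The cells held 163822 to 25095390 counts each and the sums 8117787 to 122331780. The EPI sum of MUT embryo 2 and the PrE sum of WT embryo 3 were 1 cell each. Stat3 was at 0.130 to 12.3 CPM in the MUT sums of the ICM, against 43.9 to 104 CPM in the WT sums. In EPI it was at 0.0294 to 26.3 CPM in MUT and 84.5 to 161 CPM in WT sums. In PrE the MUT sums held 9.82 to 21.4 CPM, against 136, 115 and 24.3 CPM in WT embryos 1, 2 and 3. The PrE genotypes did not overlap but nearly met at the 1 cell of WT embryo 3. The 12 PrE markers summed to 1634 to 6415 CPM in the PrE sums and 162 to 550 CPM in the EPI sums. The PrE sum of WT embryo 1 went against its label: its 1634 CPM of PrE markers were the lowest of the PrE sums, beside 2572 CPM of the 12 EPI markers and 4063 CPM of the 10 trophectoderm markers. The other PrE sums held 4073 CPM or more of PrE markers and 254 to 1318 CPM of EPI markers, and the EPI sums 2420 to 5332 CPM of EPI markers. In the ICM the 12 EPI markers summed to 1557 to 2256 CPM in MUT embryos and 3797 to 5453 CPM in WT embryos. Xist and 4 Y-linked genes typed 1 of 5 MUT and 3 of 5 WT embryos at E3.5 as male, and 4 of 4 MUT and 1 of 3 WT embryos at E3.75. The source label of the E3.75 cells reads E3.5, and the titles were followed. Letters in the titles, whose meaning is not given, run from D to H at E3.5 and from A to C at E3.75, so stage and letter cannot be told apart. At E3.75 letter B was on MUT embryos only and letter C on WT embryos only.

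Transcripts of the enzymes were found in nearly every cell. All 9 had at least 1 count in 165 of 171 cells, and the other 6 cells lacked 1 member each. Those were ICM cells: Got1 had no count in 2 MUT cells, and Idh2 and Got2 had none in 2 WT cells each. Zeros were absent from the EPI and PrE cells.

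Compared per kilobase of exon, the highest and lowest members kept much the same places in the 6 groups, and several of those between moved. Idh1, the cytosolic NADP-dependent enzyme, averaged 275 ± 245 CPM per kilobase in MUT ICM and 333 ± 111 in WT ICM (SD, n = 5 each). Idh3g averaged 274 ± 187 CPM per kilobase in MUT ICM and 355 ± 202 in WT ICM (SD, n = 5 each). These 2 were first and second in the MUT ICM and in 3 of the other 5 groups their places were also within the first 2. Ogdh, at 17.7 to 32.7 CPM per kilobase, and Got2, the mitochondrial transaminase, at 16.8 to 24.6, were the lowest in all 6 group means. Idh3a ranked 7 of 9 in every group, and Got1 ranked 6 in every group except WT ICM, where it stood above Idh2 and Glud1. Glud1 moved from rank 6 in WT ICM to rank 2 in MUT EPI and MUT PrE. Idh2 and Idh3b each ranked from 3 to 5.

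Neighbours in this order were often not separated. Idh1 exceeded Idh3g in 18 of 24 sums, Idh3g exceeded Glud1 in 16, and Glud1 exceeded Idh3b in 13. Idh3b exceeded Idh2 in 11, Idh2 exceeded Got1 in 15 and Ogdh exceeded Got2 in 15, so these pairs changed places between embryos. The steps that held most often were Got1 above Idh3a, in 21 of 24 sums, and Idh3a above Ogdh, in 20. The order depends on the length used, which was all annotated exon bases of a gene. Idh3a, Ogdh and Got2, ranked lowest, had the longest totals (5072, 5456 and 4824 bases), against 2539 for Got1. In CPM not divided by length, Idh3a was above Got1 in each group mean, such as 253 and 236 CPM in WT ICM. Transcript lengths in these cells are not known.

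**Figure D1:**
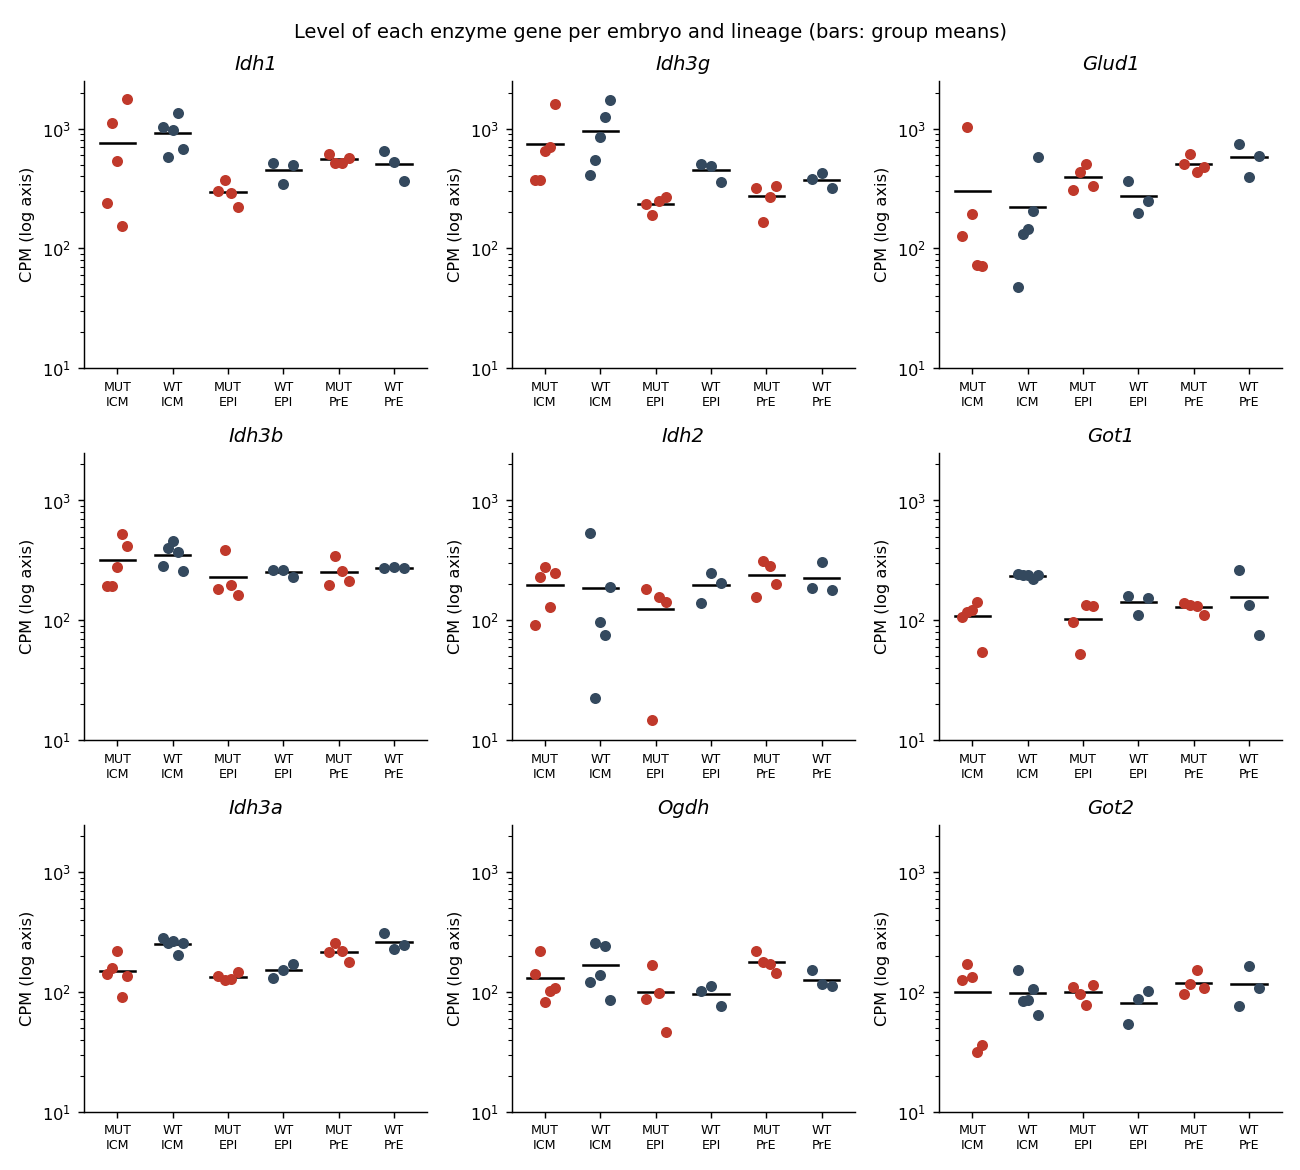
Level of each gene in CPM (TMM-scaled, log axis) in each embryo and lineage, with MUT in red and WT in blue, 1 point per embryo and a bar at the group mean. ICM points spread widely for Idh1, Glud1 and Idh2, and the WT ICM points of Got1 (219 to 244 CPM) lie close together above all MUT ICM points (54.7 to 142 CPM). In WT embryo 22, 1 of 11 ICM cells supplied 69.1% of the Got1 counts.

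The genotype comparison asks whether the loss of Stat3 changed these transcripts at each stage and lineage. In the ICM, Got1 was the lowest in MUT relative to WT and was the member whose groups did not overlap. It stood at 106, 118, 123, 142 and 54.7 CPM in MUT embryos 2, 10, 18, 23 and 24, against 244, 238, 239.9, 219 and 236 CPM in WT embryos 13, 16, 20, 21 and 22. Every MUT sum lay below every WT sum, which was so for 0.962% of the 12270 genes tested, while 0.603% had every MUT sum above. The difference did not pass edgeR's quasi-likelihood test with Benjamini-Hochberg adjustment over all genes (log2 fold change -1.12, SE 0.36, adjusted p = 0.727). DESeq2 called it (-1.04, adjusted p = 0.0286), as it did 1.99% of the genes with a count, and over 17 alternatives its log2 fold change lay between -1.25 and -0.92 with adjusted p from 0.0286 to 0.899. Fewer cells with the transcript and less RNA per cell cannot be told apart in such sums, but Got1 was also lower in single cells: the median over cells was 81.1 CPM in MUT and 164 CPM in WT ICM. The summed EPI markers given above also separated these genotypes, and the median share of mitochondrial mRNA per cell was 2.36 to 4.25% in MUT and 3.37 to 5.81% in WT embryos, which overlapped. The part of these in the Got1 difference was not tested.

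No member passed the test in the ICM, and none of the 12270 genes kept by the low-count filter did (0% called). Without that filter 3 genes were called, none of them a member. At an unadjusted p under 0.05 there were 815 genes, among them 2 members, Got1 and Idh3a. Idh3a, the catalytic subunit of the NAD-dependent enzyme, stood at 142, 158, 221, 91.7 and 136 CPM in the MUT embryos and 281, 258, 266, 205 and 255 CPM in the WT embryos, in the same order of embryos. MUT embryo 18 exceeded WT embryo 21 and the other MUT sums were below all WT sums (log2 fold change -0.77, SE 0.34, adjusted p = 0.737). Log2 fold changes were below 0 for 7 of 9 members, against 52.4% of all genes, and the median log2 fold change was -0.29 for the members and -0.054 for all genes.

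The other ICM members spread too far between embryos for their genotypes to be set apart. Glud1 stood at 128, 1037, 193, 73.3 and 72.0 CPM in MUT embryos 2, 10, 18, 23 and 24, against 47.2, 133, 146, 203 and 583 CPM in WT embryos 13, 16, 20, 21 and 22. MUT embryo 10 was far above the other MUT embryos, and WT embryo 22 above the other WT embryos. The log2 fold change of Glud1 was 0.44 (SE 0.77, adjusted p = 0.965) and -0.88 without MUT embryo 10.

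The high level in MUT embryo 10 was shared by its cells. All 19 had between 554 and 1886 CPM of Glud1, and no other MUT ICM cell exceeded 603 CPM. The same embryo had the highest sum of the 12 PrE markers among the ICM sums, 4400 CPM, against 224 to 1663 CPM in the other MUT and 458 to 1358 CPM in the WT embryos. MUT embryo 10, typed as female, also held 12.3 CPM of the Y-linked genes beside 403 CPM of Xist. No other embryo typed as female held more than 0.923 CPM of the Y-linked genes. The part of that marker level, or of these Y-linked counts, in the Glud1 value was not tested.

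Idh2, the mitochondrial NADP-dependent enzyme, gave different pictures in sums and in cells. The sums were 92.0, 228, 279, 128 and 248 CPM in MUT embryos 2, 10, 18, 23 and 24, against 537, 22.3, 96.0, 75.7 and 191 CPM in WT embryos 13, 16, 20, 21 and 22. The WT sums lay on both sides of all MUT sums (log2 fold change 0.046, SE 0.66, adjusted p = 0.995), and without WT embryo 13 the change was 1.01. The median over cells was 195 CPM in MUT ICM, with the middle 50% of cells between 127 and 257 CPM, and 34.9 CPM in WT ICM, with the middle 50% between 2.10 and 168 CPM. Cells under 10 CPM numbered 1 of 55 in MUT and 19 of 64 in WT, of which 9 were in embryo 16, 6 in embryo 21 and 4 in embryo 20. Thinned to 1000000 counts per cell, which left out 8 MUT and 3 WT cells, the median was 209 counts in MUT and 34 counts in WT cells, and Idh2 was detected in 47 of 47 MUT and 54 of 61 WT cells. Across cells its CPM had a Spearman rho with total counts of 0.31 in MUT and -0.30 in WT, and the part of depth in the difference was not tested. Embryo medians of the cells still overlapped, at 102 to 236 CPM in MUT and 1.46 to 183 CPM in WT. A limma-trend fit on the mean log2(CPM + 1) per embryo gave a log2 fold change of 1.79 (adjusted p = 0.422).

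**Figure D2:**
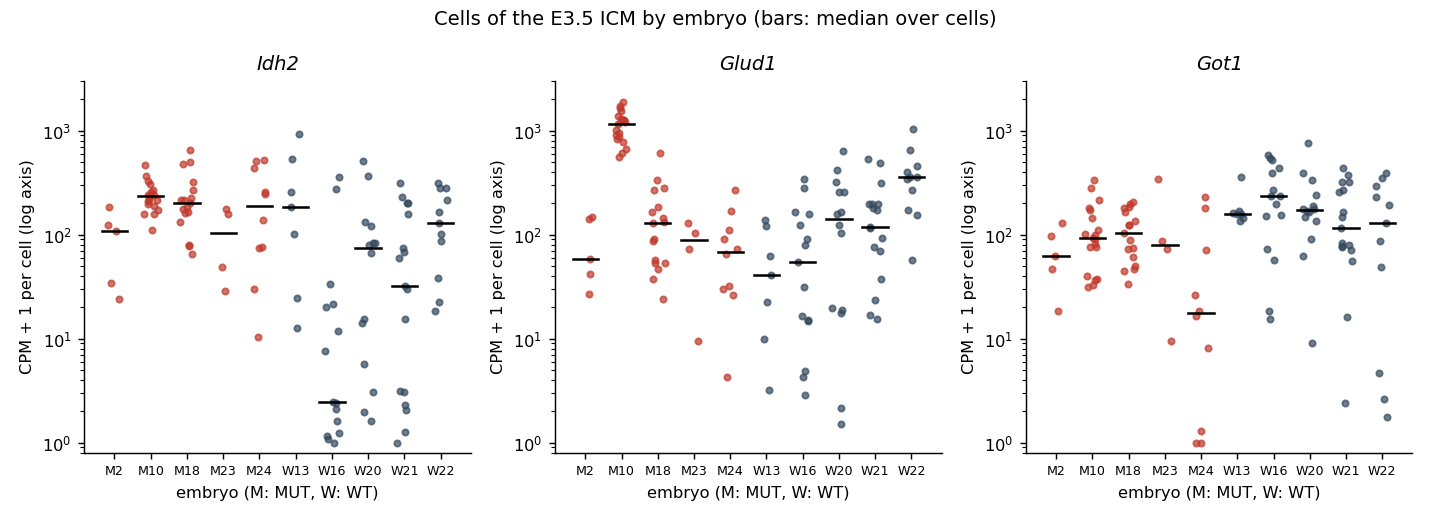
CPM + 1 (log axis) of Idh2, Glud1 and Got1 in every E3.5 ICM cell, by embryo (M, MUT in red; W, WT in blue), with a bar at the median over cells. Low Idh2 cells are gathered in WT embryos 16, 20 and 21, all 19 cells of MUT embryo 10 are high in Glud1, and Got1 is low in most cells of MUT embryo 24.

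Idh1 and Idh3g also varied from embryo to embryo in the ICM. Idh1 ranged from 153 to 1770.4 CPM in MUT embryos (median 534) and from 583 to 1352 CPM in WT embryos (median 967). Its highest value, in MUT embryo 24, rested on few cells, since 1 of its 10 cells supplied 75.7% of the Idh1 counts and 30.8% of all counts. Idh3g ranged from 373 to 1601 CPM in MUT and from 412 to 1742 CPM in WT embryos, again with MUT embryo 24 as the highest of its genotype. Neither separated the genotypes, with log2 fold changes of -0.29 (SE 0.56) for Idh1 and -0.38 (SE 0.48) for Idh3g. Idh3b, Ogdh and Got2 had log2 fold changes of -0.15, -0.37 and -0.011, with overlapping groups and adjusted p from 0.942 to 0.999.

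At E3.75, Idh3g was the member that set the EPI genotypes apart. It stood at 235, 189.8, 247 and 267 CPM in MUT embryos 1, 2, 4 and 5, against 504, 492 and 362 CPM in WT embryos 1, 2 and 3. Every MUT sum was below every WT sum, as for 5.37% of 12298 genes tested (2.23% had every MUT sum above), and the log2 fold change was -0.95 (SE 0.20) with an adjusted p of 0.325 by edgeR. DESeq2 called it (-0.91, adjusted p = 7.39e-04), as it did 2.59% of the 21648 genes with a count. Those include the genes that the low-count filter removes. Idh3g is X-linked, and sex moved with genotype here: all 4 MUT embryos were male, WT embryos 1 and 2 were female and WT embryo 3 was male. The male WT embryo, embryo 3, had the lowest WT value, above the 4 MUT males. Title letter B was on MUT embryos 1 and 2 only, letter C on the 2 WT females only, and letter A on the others. WT embryo 3 was thus the 1 WT embryo sharing sex or letter with MUT embryos. Genotype, sex and letter cannot be told apart with it alone. With sex in the fit the log2 fold change was -0.62 (SE 0.29, adjusted p = 1), and with the title letter in the fit it was -0.50 (SE 0.31). Over 426 X-linked genes the median log2 fold change was -0.12, against 0.039 for 11837 autosomal genes.

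The other 8 members overlapped between the EPI genotypes. Idh1 stood at 301, 374, 291 and 223 CPM in MUT embryos 1, 2, 4 and 5, against 519, 347 and 496 CPM in WT embryos 1, 2 and 3. The overlap came from MUT embryo 2, whose EPI sum is 1 cell, and WT embryo 2 (log2 fold change -0.61, SE 0.23, adjusted p = 0.872). Idh2 was at 183, 14.8, 156 and 142 CPM in the MUT and 139.8, 246 and 204 CPM in the WT embryos, with that same single MUT cell as the low value (log2 fold change -0.67, SE 0.68). Glud1 had the highest positive change, 0.53 (SE 0.28), followed by Got2 (0.30), Ogdh (0.045), Idh3b (-0.12), Idh3a (-0.18) and Got1 (-0.47). No member and 0% of genes passed in EPI, where 6 of 9 members were below 0 against 47.5% of genes.

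In PrE no member separated MUT from WT, whereas 3.09% of genes had every MUT sum below and 3.59% every MUT sum above, and none of 11765 genes tested passed (0%). The log2 fold changes ran from -0.49 for Idh3g (SE 0.26) to 0.47 for Ogdh (SE 0.23), and the lowest adjusted p of a member was 0.99999. Between them stood Got1 (-0.31), Idh3a (-0.30), Glud1 (-0.22), Idh3b (-0.15), Got2 (0.014), Idh2 (0.070) and Idh1 (0.098). Ogdh stood at 221, 178, 172 and 143 CPM in MUT embryos 1, 2, 4 and 5, against 153, 116 and 112 CPM in WT embryos 1, 2 and 3. Its groups met at MUT embryo 5 and WT embryo 1, the WT sum with the trophectoderm markers. The PrE sum of WT embryo 3 was 1 cell. Members below 0 numbered 5 of 9, against 48.3% of all genes.

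**Figure D3:**
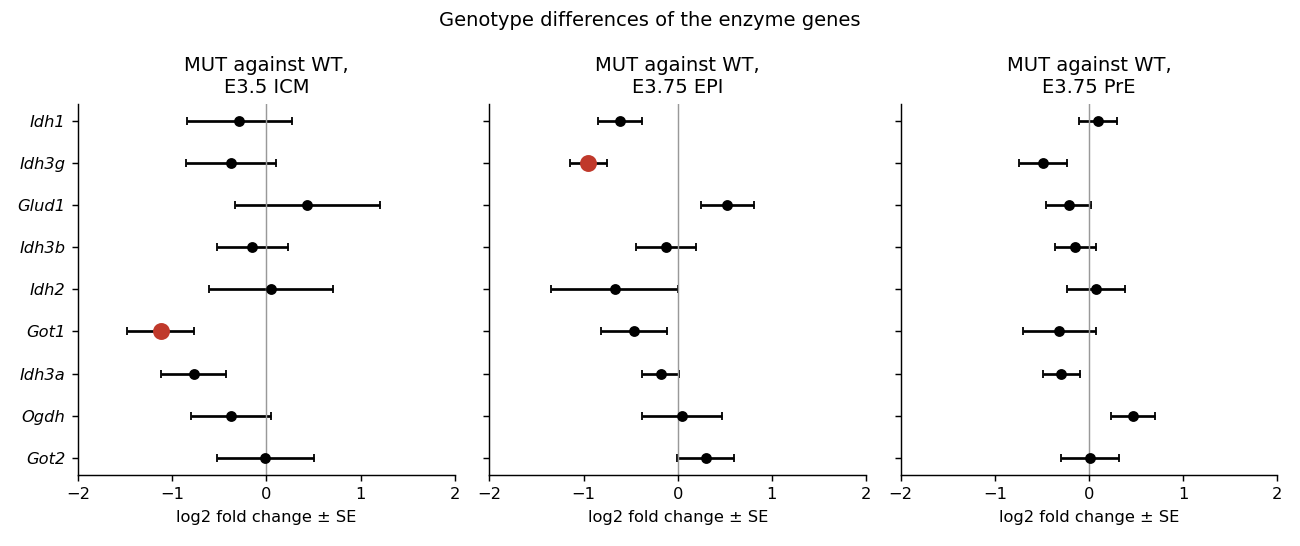
Log2 fold change of each gene, MUT over WT, in the E3.5 ICM (left), E3.75 EPI (middle) and E3.75 PrE (right), with bars of 1 SE from edgeR. Larger red points mark Got1 in the ICM (-1.12) and Idh3g in EPI (-0.95), the members whose MUT and WT sums did not overlap; none passed the adjusted threshold of 0.05.

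Differences of the genotype effect between lineages or stages were tested as interactions, 3 contrasts for each of 9 members, and none was called. The smallest unadjusted p was for Idh1, whose genotype effect was lower in EPI than in PrE by 0.75 on the log2 scale (log2 difference -0.75, SE 0.31, adjusted p = 0.842). Got1 had a log2 difference of 0.64 (SE 0.50) between its EPI and ICM effects, so a genotype effect particular to the ICM was not shown.

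The lineage comparison asks how the enzymes differ between EPI, the source of the fetus, and PrE, the source of the yolk sac endoderm, in embryos of the same stage. Most members were at lower levels in EPI. In MUT embryos 9 of 9 log2 fold changes were below 0, against 49.2% of genes, with a median of -0.36 against 0.019 over all genes. In WT embryos 8 of 9 were below 0, against 48.3% of genes, with a median of -0.18 against 0.031. None passed edgeR's test in either genotype, where 1.65% of 10698 genes (MUT) and 0.0314% of 12733 genes (WT) were called. Both lineages were read as coming from the same embryos. With the embryo as a block, 66 genes in place of 177 were called in MUT and 0 in place of 4 in WT. Again no member was called.

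Idh1 came closest to the threshold, in MUT embryos, and is named for that after its values were seen, like the other members of this paragraph and the next. It stood at 301, 374, 291 and 223 CPM in EPI of MUT embryos 1, 2, 4 and 5, against 617, 519, 518 and 567 CPM in PrE of the same embryos. EPI was below PrE in 4 of 4 embryos and the lineages did not overlap (log2 fold change -0.88, SE 0.19, adjusted p = 0.0548). Of 10 alternatives 4 called it: no low-count filter (adjusted p = 0.0491, 0.86% of genes called), DESeq2 (0.00290, 6.57%), limma-trend (0.0304, 3%) and no sums of 1 cell (0.0312, 1.32%). The first 2 of these shares are over all genes with a count. The other 6 did not, with adjusted p of 0.174 with the embryo as a block, 0.0772 with RLE scaling and 0.0619 to 0.230 without each embryo in turn. In WT embryos Idh1 was at 519, 347 and 496 CPM in EPI and 648, 523 and 363 CPM in PrE, and EPI was the lower in 2 of 3 (log2 fold change -0.16, SE 0.26). The exception was WT embryo 3, whose PrE sum of 363 CPM was 1 cell.

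Idh3a was lower in EPI in all 7 embryos. It stood at 136, 127, 129 and 146 CPM in EPI of the MUT embryos and 217, 254, 219 and 177 CPM in PrE, and at 132, 151 and 173 CPM in EPI of the WT embryos and 309.8, 227 and 249 CPM in PrE. The lineages did not overlap in either genotype. By edgeR the log2 fold change was -0.68 in MUT (SE 0.19, adjusted p = 0.152) and -0.78 in WT (SE 0.21, adjusted p = 0.255). DESeq2 called both (adjusted p = 0.00143 and 0.0231), as it did 6.57% of the genes with a count in MUT and 5.29% in WT. Every EPI sum lay below every PrE sum for 5.97% of genes in MUT and 7.44% in WT. Glud1, Ogdh and Idh3b met this in WT as well, and Glud1 had the widest gap there, at 369, 199 and 249 CPM in EPI of WT embryos 1, 2 and 3 and 749.6, 395 and 595 CPM in PrE (log2 fold change -1.09, SE 0.33, adjusted p = 0.304). The highest PrE values of Idh3a and Glud1 were those of WT embryo 1, whose PrE sum held the EPI and trophectoderm markers given above. Without WT embryo 1 the log2 fold changes by edgeR were -0.55 (Idh3a, SE 0.23, adjusted p = 0.432) and -1.15 (Glud1, SE 0.29, adjusted p = 0.335). The PrE values of WT embryo 3, 249 CPM (Idh3a) and 595 CPM (Glud1), were those of 1 cell. In MUT embryos Glud1 was lower in EPI in 3 of 4. Over all members, EPI was below PrE in 28 of 36 pairs of a member and embryo in MUT and in 21 of 27 in WT. Pairs of the same embryo share its cells and depth. No share over all genes was taken for such pairs or for counts of embryos, so these counts are a description. Idh3g went the other way in WT, being above PrE in 3 of 3 EPI sums (log2 fold change 0.27, SE 0.19).

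**Figure D4:**
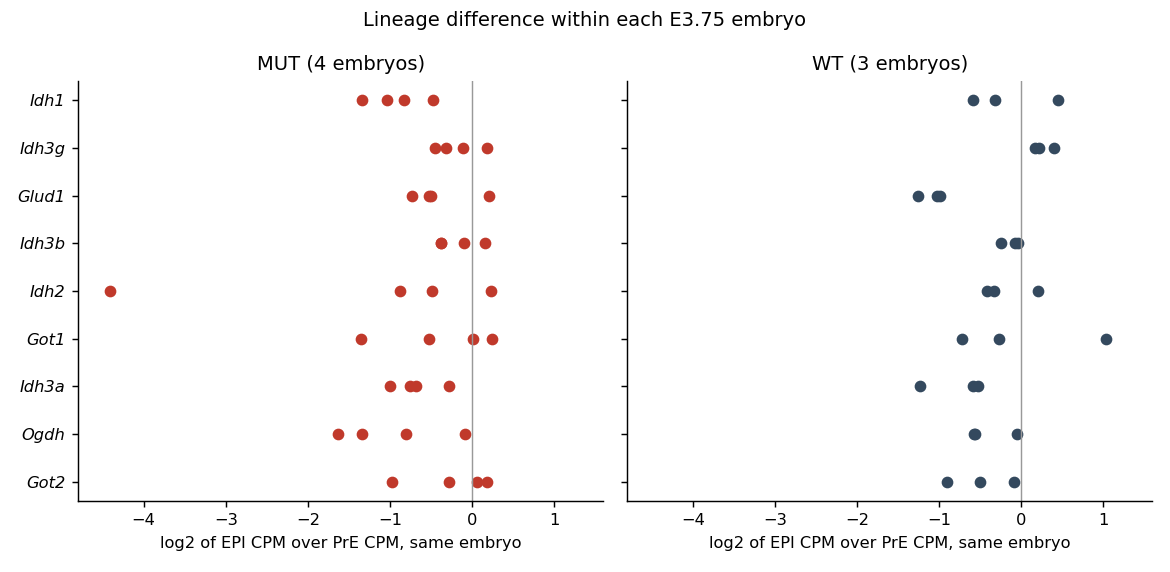
Log2 of EPI CPM over PrE CPM within each E3.75 embryo, 1 point per embryo, for MUT (red, 4 embryos) and WT (blue, 3 embryos). Idh3a and Ogdh lie left of 0 in every embryo, Idh1 in all 4 MUT embryos and Glud1 in all 3 WT embryos; the far left Idh2 point is MUT embryo 2, whose EPI sum is 1 cell.

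Between the stages, Idh3g showed the widest drop in MUT embryos. It was at 235, 189.8, 247 and 267 CPM in EPI and 321, 167, 267 and 334 CPM in PrE of MUT embryos 1, 2, 4 and 5, against 376, 373, 649, 703 and 1601 CPM in ICM of MUT embryos 2, 10, 18, 23 and 24. Both E3.75 lineages lay below all ICM sums, as did 2.8% (EPI) and 3.14% (PrE) of genes. The log2 fold changes were -1.67 (SE 0.47, adjusted p = 0.191) and -1.43 (SE 0.46, adjusted p = 0.237), and both comparisons share the ICM sums. DESeq2 called the EPI difference (adjusted p = 0.0355), as it did 4.29% of the genes with a count. In WT embryos they were -1.06 (SE 0.44) for EPI and -1.33 (SE 0.45) for PrE, with overlap. The MUT embryos were 4 of 5 female at E3.5 and 4 of 4 male at E3.75, and over 416 X-linked genes the median log2 fold change of MUT EPI against ICM was -0.37, against -0.052 for autosomal genes.

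In WT embryos, Idh1, Idh3a and Got1 were lower in every EPI sum than in every ICM sum, as were 7% of genes. Got1 was at 159, 111 and 154 CPM in EPI of WT embryos 1, 2 and 3, against 219 to 244 CPM in the ICM (log2 fold change -0.73, SE 0.24, adjusted p = 0.217). Idh1 had a log2 fold change of -1.02 (SE 0.32, adjusted p = 0.199) and Idh3a of -0.73 (SE 0.24, adjusted p = 0.214). DESeq2 called Got1 and Idh3a here (adjusted p = 0.00205 and 0.00324), as it did 7.36% of the genes with a count. The directions of all 3 turned in the limma-trend fit on embryo means of log2 values, which differs from edgeR in averaging, scaling and test as well as in the weight of cells. In that fit the median log2 fold change over all genes was 0.68, and Got1, Idh1 and Idh3a had changes of 0.30, 0.13 and 0.53, still 0.37, 0.54 and 0.15 under that median. ICM cells were shallower, with medians of 3404703 and 5064704 counts per cell in MUT and WT, against 10407966 to 11168799 in the E3.75 groups.

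Glud1 was the member with the highest positive changes between the stages. It stood at 749.6, 395 and 595 CPM in PrE of WT embryos 1, 2 and 3, against 47.2, 133, 146, 203 and 583 CPM in the WT ICM, where embryo 22 reached into the PrE range (log2 fold change 1.42, SE 0.63, adjusted p = 0.325). In MUT embryos it was at 507, 613, 437 and 476 CPM in PrE, inside the range of the ICM because of embryo 10 (log2 fold change 0.72, SE 0.73, adjusted p = 0.833). Without MUT embryo 10 the change was 2.10 and was called (adjusted p = 0.0227), as were 1.5% of genes. In the limma-trend fit Glud1 was called in WT PrE and WT EPI against the ICM (2.91 and 1.88, adjusted p = 0.0116 and 0.0401), and so was Idh2 in WT EPI (2.39, adjusted p = 0.0429). That fit called 15.7% of all genes in WT PrE and 29% in WT EPI, nearly all of them higher (2012 of 2071 and 3974 of 4048), with median log2 fold changes over all genes of 0.56 and 0.68. Of the 9 members, 8 were below 0 in MUT EPI against ICM (52.8% of genes), 7 in WT EPI (54.6%), 3 in MUT PrE (52.2%) and 5 in WT PrE (54.9%). In WT PrE none had every sum below the ICM, against 8.35% of genes. By edgeR no member passed in any of the 4 stage comparisons, in which 0.0682% and 0.308% of genes were called for EPI in MUT and WT and 0.507% and 0.349% for PrE.

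The Idh3 subunits form 1 enzyme, yet their transcripts were not equal per length. Idh3g made up 65.9 ± 8.1% of the summed CPM per kilobase of the 3 subunit genes in MUT ICM and 65.9 ± 13.5% in WT ICM (SD, n = 5 each). In EPI its share was 48.6 ± 9.99% in MUT (SD, n = 4) and 61.5 ± 3.9% in WT (SD, n = 3), and in PrE 46.3 ± 12.3% and 51.3 ± 3.7%. Idh3a was the smallest share in each group mean, from 9.2 to 19.7%. Among the cytosolic and mitochondrial pairs, Idh1 held 67.8 to 84.3% of the Idh1 and Idh2 level per kilobase in the group means, and Got1 64.6 to 82.1% of the Got1 and Got2 level. These shares depend on the annotated exon totals, 5072, 3422 and 2701 bases for Idh3a, Idh3b and Idh3g. For Got1 and Got2 the totals were 2539 and 4824 bases.

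**Figure D5:**
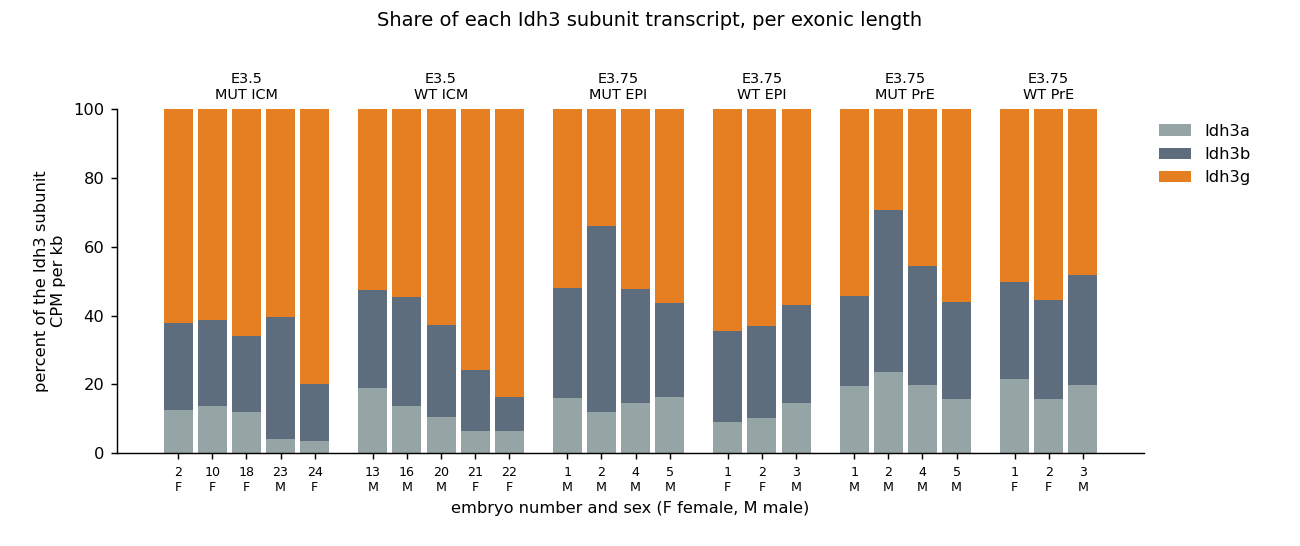
Share of Idh3a, Idh3b and Idh3g in their summed CPM per kilobase of exon, 1 bar per embryo and lineage, with the embryo number and sex below and the bars adding to 100%. Idh3g is the largest share in most sums, and its lowest shares are those of MUT embryo 2 at E3.75 (34.0% in EPI and 29.2% in PrE).

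Other genes of the pathway were read from 2 lists, 20 further TCA cycle genes and 21 genes of glutamine, glutamate and α-ketoglutarate handling. In the ICM, 16 of the 20 TCA cycle genes were below 0 in MUT relative to WT (median log2 fold change -0.47), against 8 of 20 in EPI and 8 of 20 in PrE, and none was called. Of all genes, 52.4% (ICM), 47.5% (EPI) and 48.3% (PrE) were below 0, and their median in the ICM was -0.054. Sucla2, a subunit of succinyl-CoA synthetase, had the smallest p in the ICM, at 342 ± 23.2 CPM in MUT and 758 ± 300 CPM in WT (SD, n = 5 each; log2 fold change -1.16, SE 0.33, adjusted p = 0.727). Pdhx, of the pyruvate dehydrogenase complex, followed (-1.34, SE 0.44). In EPI, Cs, the citrate synthase gene, had the smallest p (-0.71, SE 0.24, adjusted p = 0.664), followed by Suclg2 (0.54, SE 0.24). In PrE these were Suclg1 (-0.62, SE 0.24) and Sdhd (0.35, SE 0.17).

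In the handling list 14, 12 and 15 of 21 genes were above 0 in ICM, EPI and PrE, and none was called between genotypes. Those below 0 numbered 7, 9 and 6, beside 52.4%, 47.5% and 48.3% of all genes. Its smallest p values belonged to Gls2, a glutaminase, and Oat, ornithine aminotransferase, in the ICM (2.38, SE 0.90 and -1.80, SE 0.74), to Slc25a1 and Glul in EPI (-1.27, SE 0.56 and 0.95, SE 0.43), and to Gpt2 and Oat in PrE (1.97, SE 0.69 and 1.34, SE 0.52). Oat fell to 7.24 ± 5.65 CPM in EPI of MUT embryos, against 220.2 ± 89.6 CPM in PrE (SD, n = 4 each; log2 fold change -4.91, adjusted p = 0.0142 by edgeR), where 1.15% of genes were called lower. Of 10 alternatives 4 did not call it, those with the embryo as a block (adjusted p = 0.0884) or without MUT embryo 1, 4 or 5 (0.0939, 0.0556 and 0.139). It rose in MUT PrE against MUT ICM, where it was at 14.6 ± 12 CPM (SD, n = 5; log2 fold change 3.90, adjusted p = 0.0318), and 0.249% of genes were called higher. Of 15 alternatives 7 did not call it, those with sex (adjusted p = 0.270) or without ICM embryo 23 or 24 or any of the 4 PrE embryos (0.0665 to 0.0998). Of the TCA cycle list, Suclg1 fell in WT EPI to 292 ± 44.2 CPM, against 805 ± 102 CPM in WT ICM (log2 fold change -1.45, adjusted p = 0.0407), where 0.136% of genes were called lower. Of 14 alternatives 7 did not call it, those with sex (adjusted p = 0.0819) or without ICM embryo 16, 20 or 21 or any of the 3 EPI embryos (0.0655 to 0.278). No other gene of either list passed in the lineage and stage comparisons. Between lineages, 14 of 20 TCA cycle genes were below 0 in MUT and 11 of 20 in WT, and of the handling genes 10 of 20 tested in MUT and 10 of 21 in WT. Of all genes, 49.2% were below 0 in MUT and 48.3% in WT. Against the ICM, TCA cycle genes below 0 numbered 11 (MUT EPI), 16 (WT EPI), 8 (MUT PrE) and 14 (WT PrE) of 20, and handling genes 10, 7, 8 and 10 of 21 in the same order. The shares of all genes, again in this order, were 52.8%, 54.6%, 52.2% and 54.9%.

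The genes with the most similar pattern were sought by Pearson's r of log2(CPM + 1) over the 24 sums among 7945 genes with a mean of at least 10 CPM. The sums share embryos and depth, so r is a description. Idh3g was most like Abcf2 (r = 0.88), the X-linked Bcap31 (0.86) and Ubb (0.84), and Glud1 most like Hccs (0.86), Srsf2 (0.85) and Ptp4a1 (0.83). Idh2 was nearest to Pex7 (0.84), Cdc16 (0.84) and Rtca (0.79), Got1 to Rab18 (0.82), Dppa1 (0.80) and Yars (0.77), and Got2 to Cpsf6 (0.82), Ibtk (0.77) and Calu (0.76). For Idh1 these were Atp6v1b2 (0.78), Gm3608 (0.76) and Pmm2 (0.76), for Idh3a Vamp3 (0.74), Rassf1 (0.73) and Fam198b (0.73), for Idh3b Pphln1 (0.80), Emc7 (0.76) and AI662270 (0.75), and for Ogdh Tjp1 (0.69), Enpep (0.68) and Lgals8 (0.66). Among the members themselves r was lower, from -0.50 for Got2 and Idh3b to 0.56 for Got1 and Idh3a, so none was among the nearest 3 of another.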

How the data were processed

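The deposited table holds counts per gene and cell. Reads were aligned with STAR to mm10 and counted with HTSeq, per the submitters' processing notes; no version, strand setting or library method is stated there. All 171 cells were kept (7 shallow cells were left out in an alternative), every column had a sample, and no cells held identical counts. Rows without a GENCODE vM21 gene (259 of 49671) held 0.0101% of counts.

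The deposited counts of an embryo's cells of each lineage were added up and tested with edgeR 4.0.16 (quasi-likelihood, TMM, filterByExpr with a minimum count of 10, R 4.3.3), with Benjamini-Hochberg adjustment over all genes and a threshold of 0.05. The fits were 9 comparisons and 3 interactions. Levels are TMM-scaled CPM over all 24 sums. Separate litters or days are not stated, so p-values measure the spread between these embryos. Alternatives used DESeq2 1.42.0 and limma 3.58.1, among other settings. Tables and figures were made with Python 3.11.15, numpy 2.4.6, pandas 2.3.3, scipy 1.17.1 and matplotlib 3.10.9. The scripts were tested on simulated data.

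EPI and PrE with the same genotype and number were read as the same embryo and paired on that reading. Correlations of deviations were 0.0537 to 0.130 for these pairs. For MUT and WT sums that share only a number they were -0.0432 to 0.103. These ranges overlapped, so the correlations do not decide the pairing. Members and lists were chosen with earlier results of these data known. Named were all members in genotype comparisons, list genes past the threshold or else those with the smallest p, and the 3 genes most like each member.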

Additional observations from a re-analysis of the deposited data

Results flagged for a closer look

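Of 36 groups of a member and lineage with 4 to 10 embryos, 3 held an embryo far from the others by Dixon's criterion, which chance flags in about 1 in 20 groups. Glud1 stood at 1037 CPM in the ICM of MUT embryo 10, against 72.0 to 193 CPM in the other MUT embryos. Idh3g stood at 1601 CPM in the ICM of MUT embryo 24, against 373 to 703 CPM in the others, and 1 of its 10 cells held 43.9% of those counts and 30.8% of all counts; the median over its cells, 845 CPM, was also the highest of the MUT embryos. Idh3b stood at 382 CPM in the EPI sum of MUT embryo 2, which is 1 cell, against 164 to 197 CPM in the others.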

How the results depend on the processing

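In its 81 tests of a member edgeR called none, so any member direction that turned under another setting belonged to a difference not called. The cause of the turns was not tested. Without a low-count filter, genes called were 3 (MUT against WT in ICM), 32 (EPI against PrE in WT), 22 and 85 (EPI against ICM in MUT and WT) and 108 and 118 (PrE against ICM in MUT and WT), with 1 member, Idh1 in MUT EPI against PrE. DESeq2, run without that filter, called 505, 560 and 366 genes between genotypes in ICM, EPI and PrE, 1321 and 1139 between lineages in MUT and WT, 1011 and 1808 for EPI and 1211 and 1708 for PrE against ICM. Its members called were 1 in ICM, 1 in EPI, 2 and 1 between lineages, and 1 and 2 for EPI against ICM. With limma-trend on embryo means, 2 genes were called in ICM, 321 and 7 between lineages, 223 and 4048 for EPI and 630 and 2071 for PrE against ICM, with 1 member in MUT EPI against PrE, 2 in WT EPI against ICM and 1 in WT PrE against ICM. Other counts of genes called were 7 with RLE scaling (EPI against PrE in WT), 1 without shallow cells (ICM), 682 with the title letter (ICM, limma-voom), 0 without sums of 1 cell (MUT EPI and WT PrE against ICM; 1 member in MUT EPI against PrE), and with sex 154 (PrE genotype), 0 (EPI against PrE in WT), 1 and 11 (EPI against ICM) and 29 and 12 (PrE against ICM).

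The replicate block, pairing EPI with PrE of an embryo, gave 66 genes in MUT and 0 in WT. MUT and WT embryos 1 and 2 share only a number (correlations -0.0432 to 0.103); with that number as a block, PrE log2 fold changes were -0.041 (Idh1), -0.12 (Idh2), -0.070 (Got2) and 0.035 (Glud1), and no member was called.

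Turned values in the ICM were 0.22 (Idh3b) and 0.22 (Got2) with limma-trend, 0.035 (Idh3b) and -0.28 (Glud1) with sex, and for Got2 0.039 with RLE, 0.043 with DESeq2, 0.47 with the letter and 5.86e-06 without shallow cells. In EPI they were 0.021 (Idh3b) and -0.025 (Got2) with sex, -0.073 (Ogdh) and -0.092 (Got2) with the letter, and -0.34 (Ogdh) without sums of 1 cell. In PrE they were 0.73 with sex and 0.65 with the letter (Got1), and -0.075 (Idh1), -0.049 (Idh2) and -0.010 (Got2) without sums of 1 cell. WT EPI against ICM gave 0.13 (Idh1), 0.53 (Idh3a) and 0.30 (Got1) with limma-trend.

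Leaving out each embryo in turn, genes called ranged from 0 to 1 in ICM, 71 to 91 and 0 to 0 between lineages in MUT and WT, 0 to 17 and 0 to 162 for EPI and 14 to 169 and 0 to 42 for PrE against ICM. Members called ranged from 0 to 1 in MUT PrE against ICM (Glud1, without MUT embryo 10). ICM log2 fold changes ranged from -0.25 to 1.01 (Idh2), -0.41 to 0.042 (Idh3b), -0.25 to 0.23 (Got2) and -0.88 to 1.18 (Glud1). EPI values ranged from -0.50 to 0.011 (Idh3b) and -0.34 to 0.28 (Ogdh). PrE values ranged from -0.075 to 0.31 (Idh1), -0.086 to 0.36 (Idh2), -0.63 to 0.28 (Got1), -0.21 to 0.34 (Got2) and -0.43 to 0.013 (Glud1), and Idh2 in WT EPI against ICM from -0.23 to 1.06. A fit without 1 embryo that leaves few sums assumes that they vary like the rest.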
